A study of Mus musculus with 20 samples.

Results

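The mouse oocyte's transcript profile is described here against the embryo stages that follow it, on 20 Affymetrix MOE430B arrays. The profile consists of the 4 arrays titled oocyte, and it was set against the 16 arrays of 1-cell, 2-cell, 8-cell and blastocyst embryos, 4 arrays for each of these 4 stages. Each embryo stage had equal weight in the mean. All 5 groups consist of mouse total RNA amplified through 2 rounds of in vitro transcription, and the sources used here give no strain, age, treatment or oocyte maturation state. Nothing in the labels says that the 4 arrays of a stage came from separate animals or pools, and all p-values below therefore reflect just the scatter among these 20 samples, which can be technical. The question addressed is which transcripts are bright in the oocyte, and which of them read higher or lower there than in every embryo stage measured.

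A growing oocyte transcribes and stores the RNA that the early embryo will use. Transcription ceases before meiotic maturation, and in the mouse the embryonic genome becomes active mainly at the 2-cell stage, while stored maternal RNA is degraded in steps that start during maturation. Among the stored transcripts are those for the zona pellucida and secreted growth factors, for a protein complex beneath the oocyte membrane, for RNA-binding proteins that control translation, and for the machinery of meiosis. The arrays measured all RNA of a sample together, so RNA per cell and the number of cells cannot be told apart.

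The deposited values are linear intensities, one for each probe set, the group of short oligonucleotides that reports a transcript. A difference is given on the log2(intensity + 20) scale, which understates the difference of dim transcripts. A probe set was tested where it reached the table's median intensity of 82.6 on at least 4 arrays, which left 15234 of 22511 probe sets. Of these, 10478 carry 1 gene symbol and stand for 7490 genes. Stage means were compared with limma, and a difference was called at a Benjamini-Hochberg adjusted p under 0.05. Higher than every stage means that the weakest of the 4 one-sided comparisons with a single stage passed after the same adjustment.

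The oocyte arrays resembled one another most and the 1-cell arrays next. Over probe sets, whose values are not independent, the median correlation was 0.90 among oocyte arrays, 0.853 with 1-cell, 0.707 with 2-cell, 0.442 with 8-cell and 0.46 with blastocyst arrays. Control probe sets were compared between oocyte and embryo arrays by permuting 4 against 16 arrays. This treats the 4 embryo stages as 1 group. Its p therefore does not separate a difference of the oocyte from differences among those stages. For 18S ribosomal RNA, the middle of its control probe sets averaged 9.34 ± 0.47 log2 units (SD, n = 4) in oocytes, against 15.17 ± 0.17 at the 1-cell stage and 10.97 to 11.64 at the later stages (difference from the embryo mean -2.94, two-sided exact permutation p = 0.000413, adjusted over 7 such tests 0.00144, 4 against 16 arrays). The beta-actin 3'/5' log2 ratio averaged 2.36 ± 0.12 in oocytes, against stage means of 1.09 to 2.28 in embryos (difference 0.57, exact permutation p = 0.014, adjusted 0.0196). Its oocyte range, 2.24 to 2.47, overlapped with the 1-cell (1.41 to 2.29) and 2-cell arrays (2.03 to 2.57). For Gapdh the difference of this ratio was 0.07 (exact permutation p = 0.885). The 24 bacterial and phage controls differed by -0.42 (exact permutation p = 0.00495, adjusted 0.00867). They read 7.06 to 7.34 in oocytes and overlapped with the 1-cell, 2-cell and blastocyst arrays, while the 8-cell arrays averaged 8.02. The part of these differences in the results below was not tested.

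Among the 20 brightest named genes were 5 F-box genes of the Fbxw family, the oocyte secreted proteins Oosp3 and Oosp2, Ooep, Padi6 and Nlrp14 of the membrane-associated maternal complex and its relatives, and the RNA-binding Zar1. All 20 were higher in oocytes than in the embryo mean, and 2 of them, Padi6 and Fbxw16, were higher than every stage. Of all probe sets tested, 13.1% and 1.03% were so called, but the 20 were chosen for their oocyte values, which enter both differences, so nothing is read from these counts. Probes differ in how well they bind, so the order of brightness between genes is not an order of abundance.

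**Figure D1:**
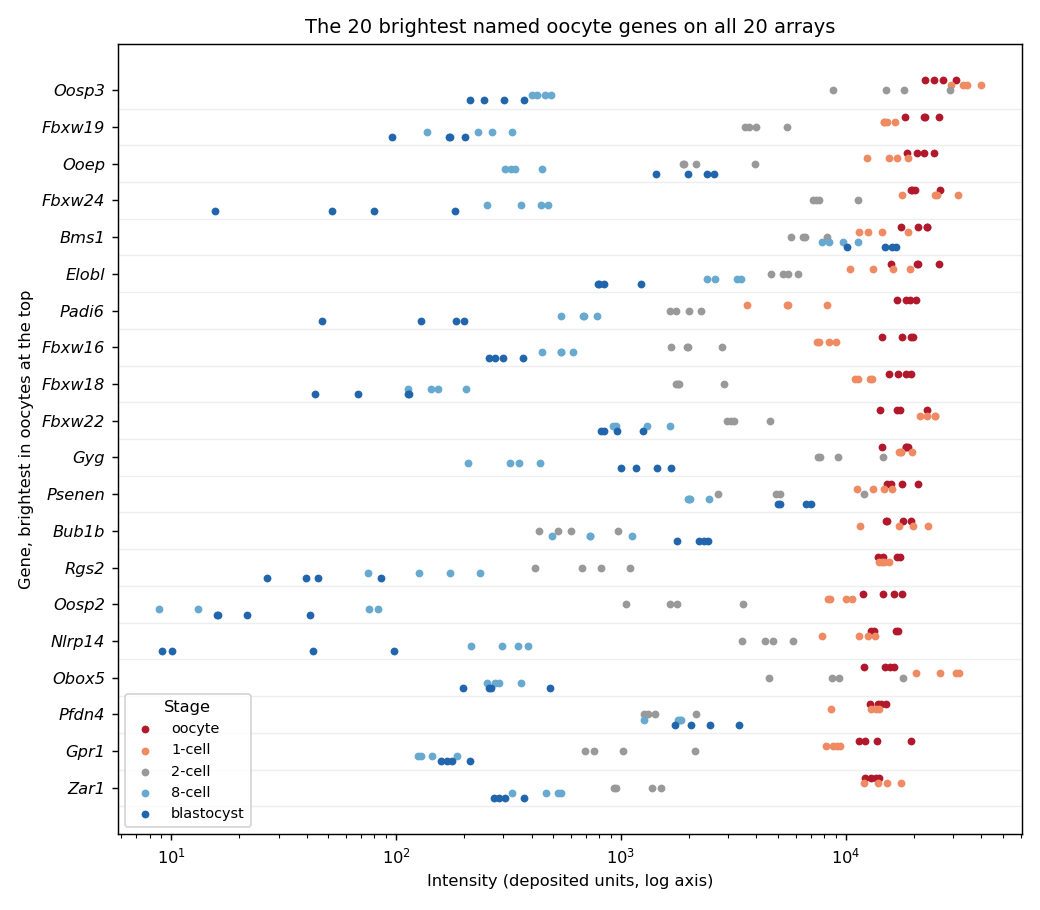
Intensity on each of the 20 arrays (log axis) for the 20 brightest named oocyte genes, ordered by their oocyte level, with 1 point for each array coloured by stage. The oocyte and 1-cell points lie close together for most genes, while 8-cell and blastocyst points lie furthest left for most, and Bms1 differs least between stages.

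Oosp3, which encodes a small secreted protein of oocytes, was the brightest. It read 22574, 30949, 27115 and 24615 on the oocyte arrays, against 40014, 34732, 33060.5 and 29293 at the 1-cell and 28896, 18168, 8723 and 15024 at the 2-cell stage. The 8-cell and blastocyst arrays lay far below, at 402 to 487 and 212 to 369.8. The oocyte values overlapped those of both earliest embryo stages, and the difference from the embryo mean was 3.15 ± 0.20 log2 units (SE, adjusted p = 7.54e-12, limma). Oosp2, of the same family, read 11877, 17688, 14557 and 16412 in oocytes, against stage means of 9371, 1989, 45.1 and 23.8 through the 4 embryo stages. All 4 oocyte arrays lay above all 16 others, yet the difference from the 1-cell stage alone, 0.68, did not pass (adjusted p = 0.314). Gpr1, a receptor for the chemoattractant chemerin, likewise did not overlap, at 12106, 19396, 13755 and 11379.5 in oocytes against 8147 to 9424 at the 1-cell stage, where the difference was 0.65 (adjusted p = 0.132).

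The subcortical maternal complex is an assembly of proteins beneath the oocyte membrane that embryos need for their first divisions. Padi6, a member of the peptidylarginine deiminase family that is required for the cytoplasmic lattices of the oocyte, read 16914, 20592, 19239.8 and 18515 in oocytes. It read 3643, 5513, 5494 and 8274 at the 1-cell stage and 1764, 1646, 2274 and 1996 at the 2-cell stage, with means of 670.8 and 140.0 at the 8-cell and blastocyst stages. The groups did not overlap, and the difference from the nearest stage, the 1-cell embryo, was 1.77 log2 units (adjusted p for every stage = 0.000212, limma). Ooep, a component of that complex, averaged 21624 ± 2466 in oocytes (SD, n = 4), against 15907 ± 2727, 2469 ± 981, 352.7 ± 62.0 and 2101 ± 513 through the embryo stages. Its highest 1-cell array exceeded the lowest oocyte array by a little, so these stages overlapped. Nlrp14, of the NLR family expressed in germ cells, averaged 14993 ± 2165 in oocytes, against 11347 ± 2488, 4589 ± 980, 310.6 ± 74.2 and 39.9 ± 41.6 in the embryo stages, and its oocyte and 1-cell arrays overlapped too.

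Of the F-box genes, whose products bind substrates of SCF ubiquitin ligases, Fbxw19 was the brightest. It read 18349.7, 26028, 22355 and 22584 in oocytes, against 14734, 16518, 15243 and 14714 at the 1-cell stage and means of 4178, 240.5 and 160.6 after it. No embryo array reached the lowest oocyte array, although the difference from the 1-cell stage, 0.54, did not pass (adjusted p = 0.174). Fbxw16 read 14499.9, 19788, 19490.1 and 17828 in oocytes, against 7577, 8408, 9018 and 7461 at the 1-cell stage, and was higher than every stage (nearest difference 1.13, adjusted p = 0.000152). Fbxw18 averaged 17644 ± 1713 in oocytes, against 12020 ± 1037, 2060 ± 538, 153.3 ± 37.7 and 84.3 ± 34.8 through the embryo stages. Fbxw24 and Fbxw22 had lower means in oocytes than in 1-cell embryos, at 21416 in oocytes against 24938 in 1-cell embryos for Fbxw24 and 17800 against 23546 for Fbxw22, and neither difference passed (adjusted p = 0.84 and 0.293). These genes are close relatives, and whether their probes share targets was not tested.

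Zar1, which binds stored maternal mRNA and is required for the oocyte-to-embryo transition, read 12170.2, 13659, 12871 and 14075 in oocytes, against 15173, 17640.3, 13834 and 12093 at the 1-cell stage. The 2-cell, 8-cell and blastocyst means were 1190, 464.6 and 308.5. The oocyte and 1-cell arrays thus overlapped, while every later array lay below both. Bub1b, the spindle checkpoint kinase, averaged 16916 ± 2179 in oocytes, against 17965 ± 4907, 630.1 ± 234, 765.1 ± 259 and 2198 ± 293 through the embryo stages, and was lowest at the 2-cell stage. Rgs2, a regulator of G-protein signalling, read 14627, 17368, 13847 and 16828 in oocytes, against 13973, 14438, 14787 and 15511 at the 1-cell and 26.7 to 86 at the blastocyst stage (difference from the embryo mean 4.75, adjusted p = 2.86e-14). Another tested probe set of Rgs2 was not called.

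The remaining bright genes serve mostly general functions. Gyg, which encodes the glycogenin that primes glycogen, averaged 17601 ± 2059 in oocytes, against 17978 ± 1176, 9759 ± 3357, 329.6 ± 93.4 and 1322 ± 300 through the embryo stages. Bms1, a GTPase of small ribosomal subunit assembly, differed least from the embryo mean, at 21074 ± 2506 in oocytes against 14309 ± 3311, 6735 ± 1054, 9317 ± 1549 and 14440 ± 2999 (difference 0.99 ± 0.17, adjusted p = 7.7e-05). Its embryo means were lowest at the 2-cell stage and its oocyte arrays overlapped those of the 1-cell stage. Obox5, a homeobox gene expressed in oocytes and early embryos, averaged 14740 ± 1912 in oocytes, against 27276 ± 5201 at the 1-cell stage, where all 4 arrays were brighter than every oocyte array, though the difference of -0.88 did not pass (adjusted p = 0.0737). Psenen, a subunit of gamma-secretase, and Pfdn4, a subunit of the chaperone prefoldin, averaged 17416 and 14048 in oocytes, against 5934 and 2402 in blastocysts. Elobl, an elongin B-like gene, had stage means of 20840 in oocytes and 14803, 5375, 2921 and 915.5 through the embryo stages.

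The 100 brightest probe sets of the oocyte, which read 5297 to 26313 on average, were then followed through the embryo stages. Of these, 89 carry 1 symbol, 7 several and 4 none, and they stand for 87 named genes. Against the embryo mean, 87 were higher, 3 lower and 10 not called, and 15 were higher than every stage. A probe set bright in oocytes is more likely to be higher there by its choice, so these counts are a description. The median intensity of the 100 was 8997 in oocytes, against 8813 at the 1-cell, 3262 at the 2-cell, 734 at the 8-cell and 614 at the blastocyst stage. At the 8-cell stage 8 of them, and at the blastocyst stage 22, averaged under 100. Conversely Rpl22, which encodes a ribosomal protein, was among the 3 that were lower, with a mean of 5431 in oocytes, against 960.9, 5354, 36517 and 30663 at the 4 embryo stages. It was chosen after its values were seen.

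Membership among each array's own 100 brightest probe sets turned over between the 1-cell and 8-cell stages. Any 2 oocyte arrays shared 87 to 91 of them (median 89.5, 6 pairs). An oocyte and a 1-cell array shared 64 to 76 (median 70), an oocyte and a 2-cell array 34 to 52 (median 40.5), an oocyte and an 8-cell array 14 to 18 (median 16) and an oocyte and a blastocyst array 19 to 23 (median 21), over 16 pairs for each stage. The ranges of consecutive stages did not overlap. Blastocyst arrays thus shared more of the bright oocyte set than 8-cell arrays did.

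**Figure D2:**
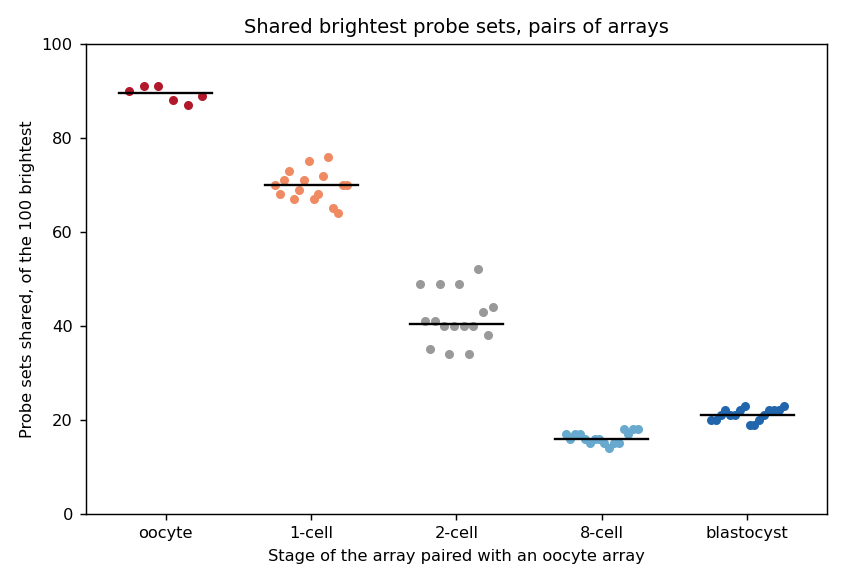
Probe sets shared between the 100 brightest of an oocyte array and the 100 brightest of another array, with 1 point for each pair of arrays by the stage of the other array, and the median as a line. The medians are 89.5 for oocyte pairs and 70, 40.5, 16 and 21 for pairs with 1-cell, 2-cell, 8-cell and blastocyst arrays, and pairs share arrays, so points are not independent.

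Over all tested probe sets, 1998 were higher and 2633 lower in oocytes than in the embryo mean, 13.1% and 17.3% of 15234. By at least 2-fold, 1189 were higher and 1408 lower, and by at least 8-fold 104 were higher and 36 lower, and the largest differences were 5.69 and -5.04 log2 units. The higher share of all calls was 43.1%, and it came to 56.8% (2504 higher, 1906 lower) when arrays were centred on their medians and 48.1% (2047 and 2213) after quantile normalization, so which direction is more frequent depends on the scaling. The median difference of all tested probe sets was -0.09 as deposited, 0.06 with median centring and 0 after quantile normalization. Taken by single stages, 649 probe sets were higher (4.26%) and 406 lower (2.67%) in oocytes than at the 1-cell stage. Against the 2-cell stage 1474 (9.68%) were higher and 1814 (11.9%) lower, against the 8-cell stage 2553 (16.8%) and 3536 (23.2%), and against the blastocyst stage 2449 (16.1%) and 3292 (21.6%). These comparisons share the oocyte arrays.

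**Figure D3:**
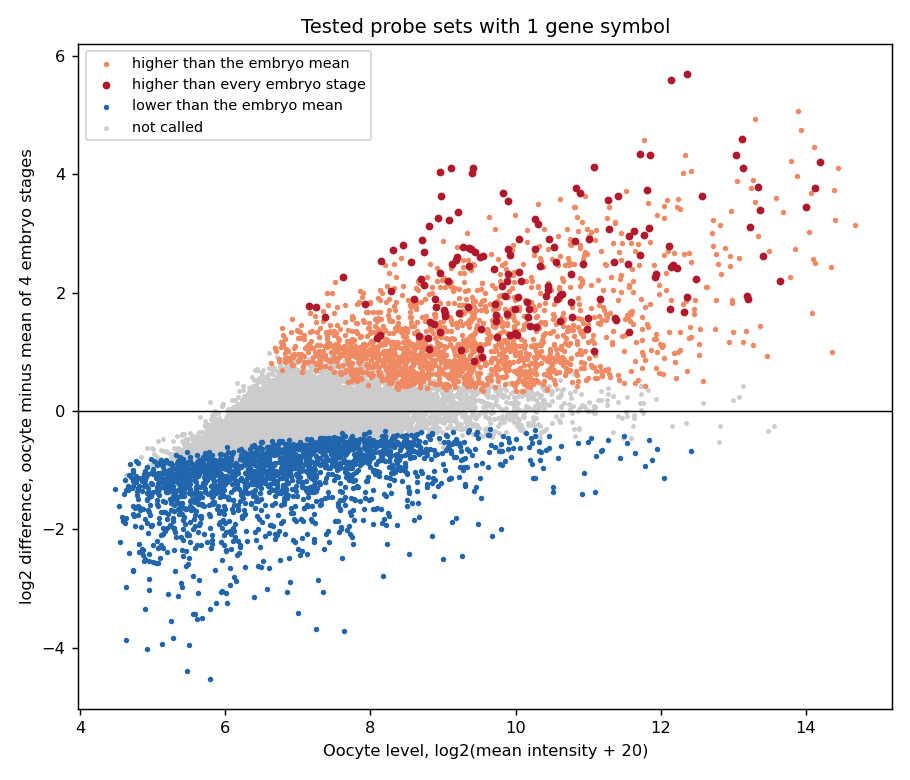
Difference between oocytes and the mean of the 4 embryo stages (log2 units, vertical) against the oocyte level (log2 of mean intensity + 20, horizontal) for the 10478 tested probe sets with 1 gene symbol. Calls toward the oocyte reach 5.69, and the probe sets higher than every embryo stage spread over oocyte levels from dim to bright.

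A smaller set read higher in oocytes than in every embryo stage: 157 probe sets, 1.03% of those tested, of which 152 carry 1 symbol and stand for 140 genes. In 153 of the 157 all 4 oocyte arrays lay above all 16 embryo arrays, which 359 probe sets (2.36%) did in all. Their mean oocyte intensity was 122.5 to 18815, with a median of 1041. The nearest embryo stage was the 1-cell stage for 105, the 2-cell stage for 26, the 8-cell stage for 7 and the blastocyst for 19. Of the oocyte intensity, a median of 33.2% was read at the 1-cell, 22.2% at the 2-cell, 12.6% at the 8-cell and 14.2% at the blastocyst stage. For 54 of the 157 the blastocyst mean was under 100, and for 87 it lay above the 8-cell mean. The filter let in some of the 157, such as Cage1 below, through their 4 oocyte arrays alone. The same oocyte values enter the calls, so the count and these percentages are a description. Leaving out the 4 arrays of the 1-cell stage brought the count to 764, which held all 157. Fewer comparisons then had to pass, so that all 157 were kept is no check of them.

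Fbxw13, another F-box gene, had the largest difference from its nearest stage among the 15 genes named from this set. That choice left out x_at probe sets and clone names. Larger differences were read for 1700021F07Rik, a clone name (3.96), and for an x_at probe set of Cage1 (3.59). Fbxw13 read 3959, 6338, 5709 and 5084 in oocytes, against 397, 469.8, 477 and 487 at the 1-cell and 249, 295, 139 and 92.7 at the 2-cell stage. On 8-cell and blastocyst arrays it read 6.9 to 22.7 and 4 to 18.8. No embryo array came near the oocyte values, and the nearest difference was 3.45 log2 units (adjusted p = 8.6e-09), while that from the embryo mean, 5.69 ± 0.21, was the largest of all tested probe sets.

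Genes known from germ cells were among the 15 named in this set. Cage1, an antigen gene expressed in testis, read 297, 604, 418 and 816 in oocytes, against 17.6, 32.3, 25.2 and 69.6 at the 1-cell stage and at most 25.9 on any later array (nearest difference 3.29, adjusted p = 1.28e-06). Its other tested probe sets were both called in the same direction. No embryo array reached the filter's intensity for the Cage1 probe set shown, so it was tested only because of its oocyte arrays. The oocyte values that passed the filter also enter its difference and p-value, which are therefore a description. Gtsf1, a zinc finger partner of PIWI proteins in the silencing of retrotransposons, read 8520.2, 11629, 11869 and 10184 in oocytes. Its embryo arrays read 1279, 1570.3, 1867 and 2245 at the 1-cell stage, 911 to 2007 at the 2-cell, 627 to 836 at the 8-cell and 380.2 to 882 at the blastocyst stage. The lowest oocyte array was thus far above the highest embryo array (nearest difference 2.60, adjusted p = 3.26e-07). Ccdc62, which mouse sperm formation requires, and Tex26, a testis-expressed gene, read 3443 to 3827 and 3109.8 to 3637 in oocytes, against 463 to 782 and 438 to 953 at the 1-cell stage, with 8-cell means of 54.9 and 27.1.

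Tert, the reverse transcriptase of telomerase, read 618, 450.0, 788 and 729.9 in oocytes, against 196, 116, 82.4 and 152 at the 1-cell, 44.2, 26.4, 65.2 and 46.7 at the 2-cell, 56.3, 79.1, 98.4 and 70.3 at the 8-cell and 95.8, 33.5, 119.5 and 100.3 at the blastocyst stage. The lowest oocyte array exceeded the highest embryo array, and the nearest difference was 2.12 (adjusted p = 0.000107). Disp1, which releases Hedgehog ligands from cells, averaged 1392 ± 225 in oocytes, against means of 193.9, 219.0, 154.8 and 122.3 through the embryo stages. Cdc42bpa, a kinase bound by the GTPase Cdc42, read 350.4, 381, 766 and 376 in oocytes, where replicate 3 stood apart, against 101, 34.3, 40.4 and 141 at the 1-cell stage. Tbc1d7, a subunit of the tuberous sclerosis complex, averaged 297.0 ± 80.5 in oocytes, against 65.5 ± 67.9 at the 1-cell stage. The other tested probe set of each of these last 2 genes was not called against the embryo mean. Too few embryo arrays of Cdc42bpa and Tbc1d7 reached the filter's intensity, so both were tested only because of their oocyte arrays.

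The nearest difference of the others ran up to 2.85 log2 units, in Fam47e. Nostrin, which binds endothelial nitric oxide synthase, averaged 888.3 ± 198 in oocytes, against 178.4 ± 104, 88.2 ± 52.0, 19.8 ± 6.0 and 13.9 ± 1.1 through the embryo stages. Mindy4, of a deubiquitinase family, averaged 637.6 ± 31.5 in oocytes, against 122.0 ± 61.9, 112.9 ± 24.8, 62.5 ± 28.0 and 54.6 ± 40.7. Both had a lower mean at each later stage, and no embryo array reached the oocyte values. Fam47e, Fam162b, Mapk1ip1 and Aknad1 read 523.0, 1209, 2476 and 2045 in oocytes, against 56.2, 223.0, 495.2 and 462.3 at the 1-cell stage. Too few embryo arrays of Fam47e reached the filter's intensity, so it too was tested only because of its oocyte arrays.

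**Figure D4:**
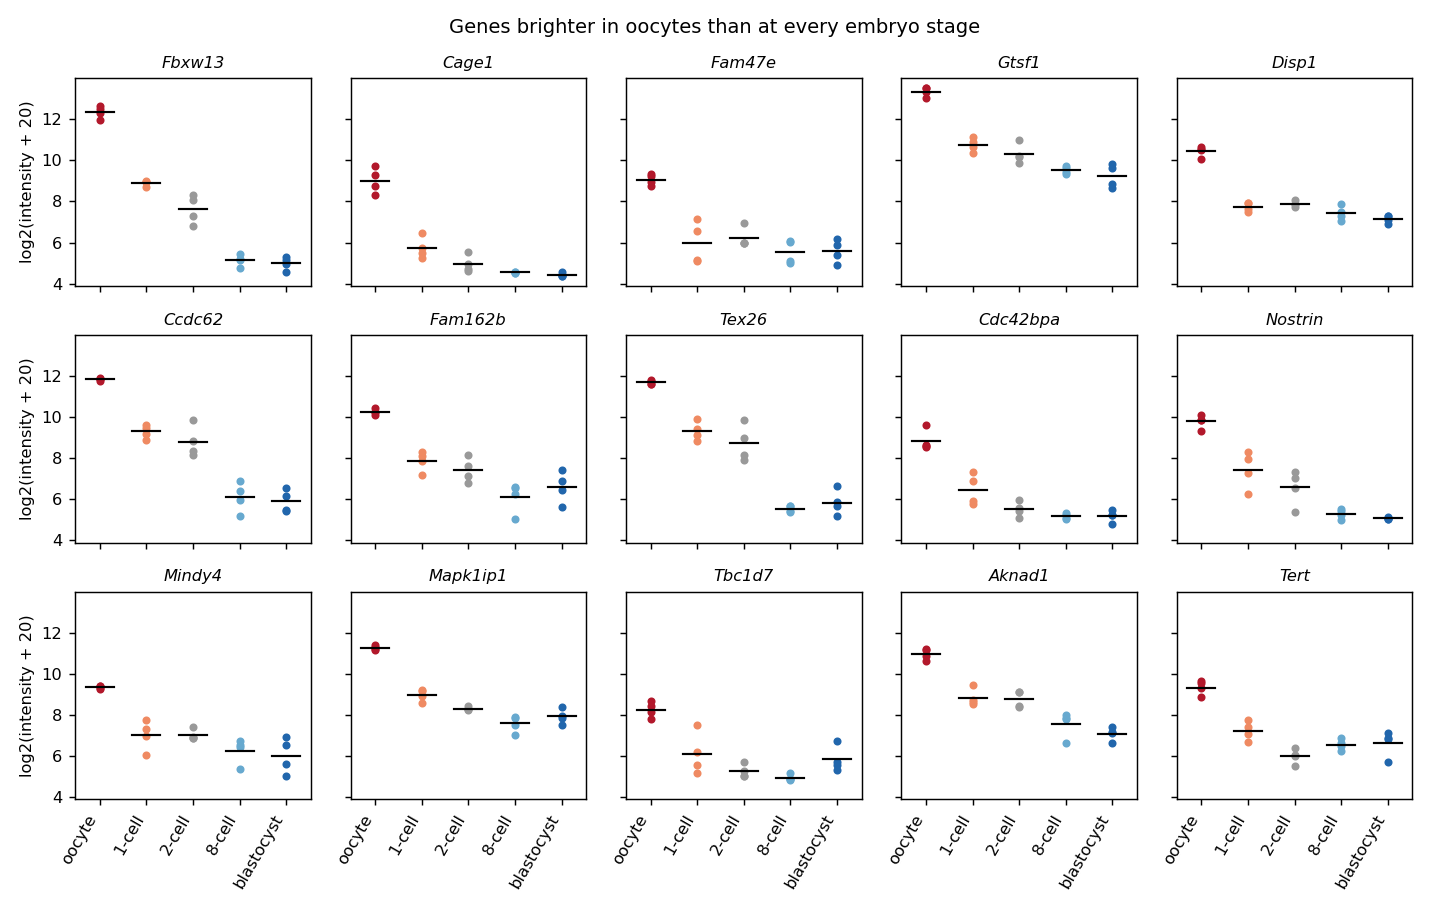
Level on each array, as log2(intensity + 20), of the 15 named genes brighter in oocytes than at every embryo stage, with 1 point for each array and the stage mean as a line. In every panel the 4 oocyte points lie above all 16 embryo points, which the choice of these genes required. The nearest embryo mean lies 2.12 (Tert) to 3.45 (Fbxw13) log2 units below the oocyte mean.

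Not all genes higher than every stage were at low intensities in embryos. Noc4l, a ribosome assembly factor, averaged 5252 in oocytes, against 1410, 995.6, 1440 and 1647 at the embryo stages. It was read on an x_at probe set, whose probes can match other transcripts. Glrx5, a mitochondrial glutaredoxin of iron-sulphur cluster assembly, averaged 9352 in oocytes, against 923.4 at the 8-cell and 4073 at the blastocyst stage, its nearest. The transcription factor gene Meis2 averaged 9559 in oocytes, against 2613 in 1-cell and 4982 in 2-cell embryos. These 3 genes were chosen after their values were seen. Of the 140 genes, 56 had more than 1 tested probe set. In 24 of these every tested probe set was higher than the embryo mean, in 31 at least 1 was not called and in 2 at least 1 was lower.

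For the genes higher than every stage, promoter windows of 300 bases, from 250 before to 50 after a gene's start, were taken from RefSeq (GRCm38.p6), and 115 of the 140 genes matched, with 149 windows. The windows of 3 named genes of germ cells that were brightest in oocytes are shown, while that of Ccdc62, which shared this pattern, is not. Capitals mark the homeodomain motif TAATTG, the TATA box sequence TATAAA and the CCAAT box (ATTGG on the other strand), each searched on both strands. The windows of Cage1 and Tex26 hold the CCAAT box once, and those of Gtsf1 and Ccdc62 hold none of these letters. The Cage1 window is chr13:38036888-38037187, minus strand.
Cage1: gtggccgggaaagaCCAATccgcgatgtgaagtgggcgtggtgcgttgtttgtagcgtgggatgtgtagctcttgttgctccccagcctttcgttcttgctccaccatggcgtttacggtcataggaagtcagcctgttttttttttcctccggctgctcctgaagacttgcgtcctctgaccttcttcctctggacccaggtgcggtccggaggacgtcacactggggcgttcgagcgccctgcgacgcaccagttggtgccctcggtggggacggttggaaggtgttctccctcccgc
The Tex26 window is chr5:149439410-149439709, plus strand.
Tex26: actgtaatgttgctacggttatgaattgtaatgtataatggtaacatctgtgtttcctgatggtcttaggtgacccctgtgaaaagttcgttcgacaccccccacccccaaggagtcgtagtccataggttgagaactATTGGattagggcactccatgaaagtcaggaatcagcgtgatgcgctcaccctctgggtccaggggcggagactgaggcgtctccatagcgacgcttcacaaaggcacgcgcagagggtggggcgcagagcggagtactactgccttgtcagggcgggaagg
The Gtsf1 window is chr15:103430378-103430677, minus strand.
Gtsf1: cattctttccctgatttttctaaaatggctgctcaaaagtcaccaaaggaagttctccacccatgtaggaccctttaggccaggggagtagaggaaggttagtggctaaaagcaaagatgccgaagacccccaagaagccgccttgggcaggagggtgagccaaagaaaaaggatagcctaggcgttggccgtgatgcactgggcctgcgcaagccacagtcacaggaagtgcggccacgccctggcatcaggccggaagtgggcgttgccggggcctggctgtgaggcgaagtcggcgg
Over the 149 windows, CCAAT on either strand was found in 42.3%, against 37% of 7545 windows of all genes tested and 37.4% of 32851 windows in the whole table. TAATTG, bound by homeodomain proteins such as Nobox, was found in 7.38%, against 5.92% and 8%. TATAAA was found in 8.05%, against 8.44% and 13.6%, and CANNTG, the E-box, in 72.5%, against 66.1% and 72.3%. CG dinucleotides numbered a median of 15 in a window, against 17 in windows of all genes tested and 7 in those of the whole table. A match describes the letters of a window and is neither a site nor a cause.

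Ranked by the difference from the embryo mean, Fbxw13 was followed by Pabpn1l, an oocyte poly(A)-binding protein that works in maternal mRNA decay. Pabpn1l read 4451, 3415, 5194 and 5011 in oocytes, against 1094, 1807, 1628 and 1968 at the 1-cell stage and at most 33.6 on any later array (difference 5.60 ± 0.17, adjusted p = 2.67e-17). Tent5c, which adds poly(A) tails to mRNA, read 6594, 8229, 8985 and 9694 in oocytes, against 2041, 2310.2, 2514 and 2834 at the 1-cell stage and 529.5, 489.3 and 24.2 on average after it. Both were also higher than every stage. Neither overlapped with any embryo array, which was a condition for being named here. Nlrp4b read 9551, 11179.7, 9052 and 10347 in oocytes, against 9001, 8993, 8549 and 7279 at the 1-cell stage, which did not pass on its own (difference 0.25, adjusted p = 0.736), and 41.9 and 17.5 on average at the 8-cell and blastocyst stages. Fbxw21 averaged 8867 ± 906 in oocytes, against 2878 ± 696, 1172 ± 204, 110.4 ± 26.4 and 25.3 ± 17.3 through the embryo stages.

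No probe set was lower in oocytes than in every embryo stage at an adjusted p under 0.05 by limma (0% of 15234, against the 1.03% higher than every stage). The smallest adjusted p was 0.0576, and at an unadjusted p under 0.05 there were 329 lower and 499 higher. All 4 oocyte arrays lay below all 16 embryo arrays for 74 probe sets (0.486%). The limma fit with array weights called 5, and leaving out the 1-cell arrays brought the count to 877.

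Genes chosen for a lack of overlap therefore describe this side, by their difference from the embryo mean. Mad2l1bp, which silences the spindle checkpoint, had the smallest adjusted p for every stage. It read 368, 484, 392 and 517 in oocytes, against 639, 870.1, 825 and 862 at the 1-cell and 5108, 4539.6, 5339 and 5042 at the 2-cell stage, and 2866 and 1247 on average at the 8-cell and blastocyst stages. Its oocyte arrays all lay below the others, with a difference of -0.83 from the 1-cell stage (adjusted p = 0.000413 for that stage alone and 0.0576 for every stage). Nup205, a scaffold protein of the nuclear pore, read 94.2, 21.6, 64.5 and 19.1 in oocytes, against 163, 212, 169 and 121 at the 1-cell stage and 254.1 to 307.2 on average later, and Qk, the RNA-binding protein quaking, read 8.1, 15.3, 23.7 and 6.3 in oocytes, against 87.4, 46.6, 58.3 and 83.9 at the 1-cell stage. The oocyte values of both were below the filter's intensity or close to it. Those of Qk were all below it, so Qk was tested only because of its embryo arrays.

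Taf1d, a subunit of the RNA polymerase I initiation factor, had the largest difference in this group. It read 71.4, 102, 93.5 and 83.1 in oocytes, against 108, 122, 127 and 126 at the 1-cell stage and 657.5, 1527 and 1095 on average later (difference -2.52 ± 0.22, adjusted p = 3.05e-09). The step from the oocyte to the 1-cell stage was small and did not pass (-0.39, adjusted p = 0.545). Mapkapk3, a kinase downstream of p38, averaged 13.8 ± 2.6 in oocytes, against 88.3 ± 61.4, 70.0 ± 28.7, 368.4 ± 140 and 243.0 ± 75.3 through the embryo stages. Rbbp4, a histone-binding subunit of chromatin complexes, averaged 64.8 ± 36.4, against 129.9 ± 19.1, 391.7 ± 218, 484.9 ± 72.6 and 398.6 ± 151. Prrc2b averaged 42.3 ± 3.8 in oocytes, against 115.5 ± 78.5, 98.3 ± 44.6, 440.6 ± 65.2 and 576.3 ± 161, and Cenpi, of the inner kinetochore, 29.7 ± 12.3 in oocytes, against 46.8 ± 4.2, 236.7 ± 67.4, 248.8 ± 205 and 323.2 ± 85.4. For all 5 genes the 1-cell or 2-cell mean was the lowest among the embryo stages. Every oocyte array of Mapkapk3, Prrc2b and Cenpi read below the filter's intensity, as did some of Taf1d and Rbbp4. Mapkapk3, Prrc2b and Cenpi were thus tested only because of their embryo arrays. All 5 genes were also chosen for a lack of overlap, so their differences are a description.

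Gene lists were read with the brightest tested probe set for each gene, so that 18.6% of 7490 genes were higher and 17.2% lower in oocytes than in the embryo mean, and 1.59% higher than every stage, with a median difference of -0.03 over all. Genes of the lists given below by stage means without SD were chosen after their values were seen. Lists and their members were chosen with earlier results of these data known, so the shares of a list are a description. Of 14 tested oocyte-defining genes (16 on the array, 49 listed), 11 were higher, 1 lower and 2 not called, with a median difference of 3.29. Besides Zar1, Oosp2, Oosp3, Ooep and Padi6 these included Astl, the protease that hardens the zona pellucida, at 4856, 4032, 4595 and 4114 in oocytes, against 2509, 2611, 2644 and 2632 at the 1-cell stage. Astl was higher than every stage (nearest difference 0.75, adjusted p = 0.0165). Bmp15, a growth factor secreted by the oocyte, averaged 2793 in oocytes, against 4103, 2246, 45.1 and 13.5 in the embryo stages. Taf4b, a germ cell subunit of TFIID, was the lower one, at 875.7 in oocytes, against 1355 to 2891 in the embryo stages, whereas Sohlh1 and Sohlh2, transcription factors of early follicles, were not called.

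Of 12 tested genes of the subcortical maternal complex and the Nlrp family (24 listed), 10 were higher and 2 not called, with a median of 2.97. In shares, 83.3% were higher and 0% lower, against 18.6% and 17.2% of all genes. Nlrp4a averaged 9838 ± 1525 in oocytes, against 13391 ± 2806, 3166 ± 1352, 84.0 ± 23.6 and 26.3 ± 12.5 through the embryo stages, and was thus brightest at the 1-cell stage. The difference from that stage, -0.43, did not pass (adjusted p = 0.4). The 1-cell mean was the highest also for Nlrp4e, Nlrp4f, Nlrp9a and Nlrp9c, with Nlrp4f at 11536 in oocytes against 16605 at the 1-cell stage. Khdc3, a further component of the complex, departed from the rest: it averaged 2305 in oocytes, against 575.1, 396.0, 3707 and 20822 in the embryo stages, and was not called against their mean (adjusted p = 0.523).

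**Figure D5:**
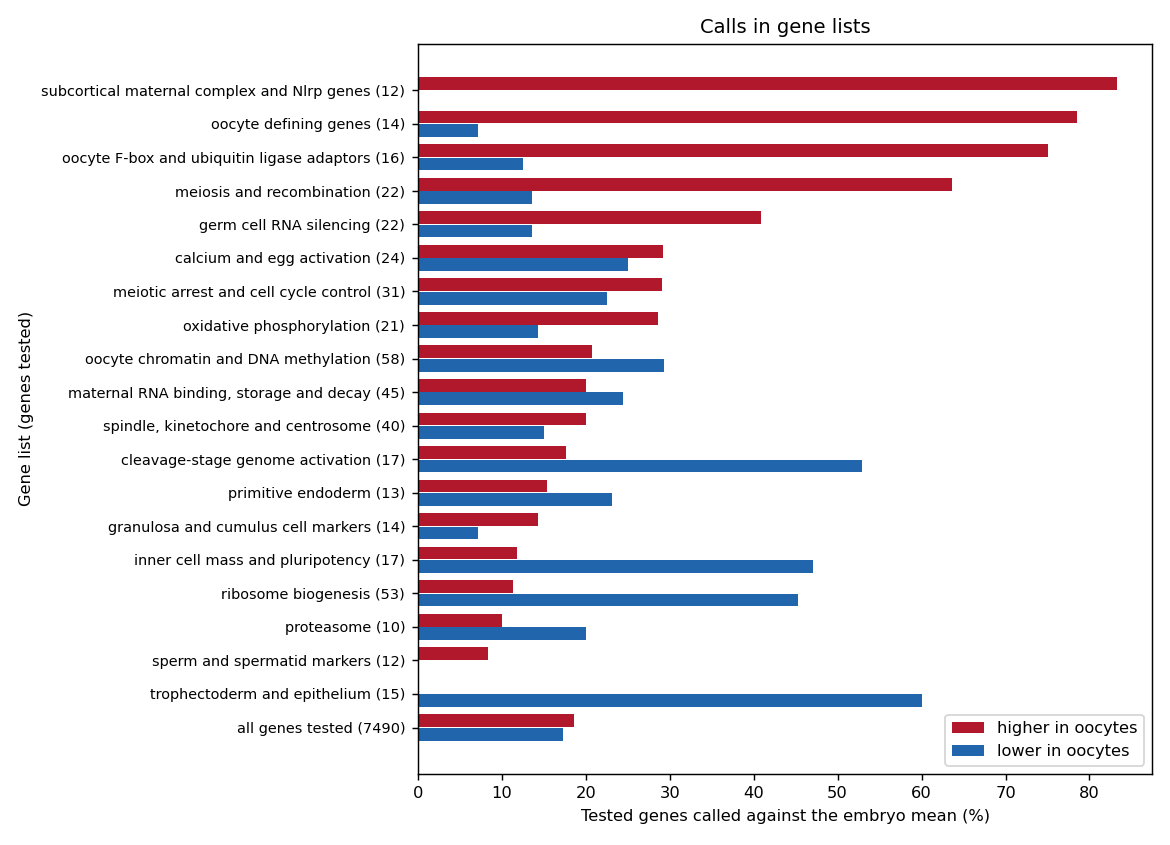
Share of tested genes in each list that was higher (red) or lower (blue) in oocytes than in the mean of the 4 embryo stages, with the number of genes tested in brackets and all genes tested in the bottom row. The lists of maternal complex, oocyte-defining and F-box genes have the highest red shares, 83.3%, 78.6% and 75%, against 18.6% of all genes. The trophectoderm list has the highest blue share, 60%, against 17.2%. Lists were chosen with earlier results of these data known, so these shares are a description.

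Of 16 tested F-box and ubiquitin ligase adaptor genes (18 on the array, 31 listed), 12 were higher, 2 lower and 2 not called, with a median of 2.71. In shares, 75% were higher and 12.5% lower, against 18.6% and 17.2% of all genes. Higher than every stage were 5, where 1.59% of all genes were so called. Those 5 were Fbxw13, Fbxw16, Fbxw17, Fbxw21 and Fbxo34. Fbxw17 averaged 635.9 in oocytes, against 137.5, 101.8, 48.8 and 171.3 in the embryo stages, and Fbxo34 4571, against 2174, 1687, 1047 and 112.4. The Fbxw family thus ranged from genes already lower at the 1-cell stage, such as Fbxw13, to genes with a higher mean there, such as Fbxw24. Trim61 and Trim75, of the tripartite motif family, were brightest at the 1-cell stage, at 4208 and 2575 in oocytes against 8952 and 5051 in 1-cell embryos. The lower ones, which came to 1 when any 1 of the 4 oocyte arrays was left out, were Rfpl4b and Marchf7, with Rfpl4b at 40.6 in oocytes against 1549 at the 2-cell stage.

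Of 45 tested RNA-binding, storage and decay genes (49 on the array, 106 listed), 9 were higher, 11 lower and 25 not called, with a median of -0.17. The shares were 20% higher and 24.4% lower, against 18.6% and 17.2% of all genes, so nothing is read from these counts. Beside Zar1 and Pabpn1l, Patl2, an oocyte paralogue of the decay factor Patl1, read 2438, 1948, 2618 and 2124 in oocytes, against 1174, 1022, 1256 and 1214 at the 1-cell stage and 223 to 274 at the 8-cell stage. It was higher than every stage (nearest difference 0.95, adjusted p = 0.000575) and its blastocyst mean, 877.2, exceeded its 8-cell mean. Cnot11, a subunit of the CCR4-NOT deadenylase, averaged 5214 ± 213 in oocytes, against 4183 ± 327, 882.7 ± 165, 1183 ± 103 and 985.5 ± 318 through the embryo stages, although a further tested probe set was not called. Those lower in oocytes included Eif4e, the cap-binding factor, Ythdf1, a reader of methylated adenosine, and the uridylyl transferase Tut4. The 11 lower genes came to 7 with median centring and 7 without oocyte replicate 4.

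Of 22 tested meiosis and recombination genes (57 listed), 14 were higher, 3 lower and 5 not called, with a median of 0.80. The shares were 63.6% higher and 13.6% lower, against 18.6% and 17.2% of all genes. Only Cage1, described above as a testis antigen gene, was higher than every stage, and no other gene of the list was. No embryo array reached the filter's intensity for the Cage1 probe set of this list either. The 3 lower came to 1 without oocyte replicate 2, and likewise to 1 with quantile normalization, median centring or a filter at the 75th percentile. Psmc3ip, a partner of the meiotic recombinases, read 1196, 956, 1189 and 1784 in oocytes, against 43.8, 18.5, 82 and 71 at the 1-cell and 1376, 1304, 2112 and 1802 at the 2-cell stage. The 1-cell arrays were all far below the oocyte arrays, whereas the 2-cell arrays overlapped them. Sycp2, of the synaptonemal complex, averaged 654.8 ± 147 in oocytes, against 745.6 ± 196, 660.0 ± 60.9, 176.8 ± 40.9 and 41.2 ± 23.9 through the embryo stages. Meikin, a kinetochore protein of the first meiotic division, averaged 480.1 in oocytes, against 197.2, 291.4, 184.5 and 129.0 in the embryo stages.

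Cell cycle and spindle lists are given beside the shares of all genes, 18.6% higher and 17.2% lower. Of 31 tested genes of meiotic arrest and cell cycle control, 9 were higher, 7 lower and 15 not called (29% and 22.6%, median 0.20). Of 40 spindle, kinetochore and centrosome genes 8 were higher, 6 lower and 26 not called (20% and 15%, median -0.06). The spindle list thus lay close to all genes, and nothing is read from its counts. Wee2, the kinase that holds oocytes in arrest, averaged 10036 in oocytes, against 8774, 11735, 106.2 and 28.4 in the embryo stages. Ccno, an atypical cyclin, read 4788, 4056, 6022 and 4828 in oocytes, against 2328, 2723, 3055 and 3523 at the 1-cell stage, and narrowly missed the threshold for every stage (adjusted p = 0.0515) although no embryo array reached the oocyte values. Ccne1, cyclin E, was on the other side, at 254, 274, 199.6 and 345 in oocytes, against 317, 215, 358 and 389 at the 1-cell and 4263 to 5256 at the 8-cell stage, on an x_at probe set. Spire1, an actin nucleator needed for asymmetric oocyte division, averaged 1921 ± 325 in oocytes, against 2582 ± 395, 751.5 ± 40.2, 152.2 ± 39.8 and 88.6 ± 44.6, and Cenpp, of the inner kinetochore, 1337 ± 221 in oocytes, against 191.5 ± 64.4, 217.5 ± 45.2, 417.4 ± 121 and 1001 ± 231. Of the 4 other tested probe sets of Spire1, 1 was called the same way, and 1 tested probe set of Cenpp was called the opposite way.

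Of 24 tested calcium and egg activation genes, 7 were higher, 6 lower and 11 not called (median 0.15). The shares were 29.2% higher and 25% lower, against 18.6% and 17.2% of all genes. The 6 lower came to 3 with median centring and 3 without oocyte replicate 4. Slc39a10, a zinc importer, averaged 5925 ± 972 in oocytes, against 7171 ± 997, 2785 ± 145, 1032 ± 123 and 1266 ± 329. Stim2, a calcium sensor of the endoplasmic reticulum, read 665, 510.0, 634 and 568 in oocytes, against 249, 264, 347 and 500.3 at the 1-cell stage, and did not pass for every stage (adjusted p = 0.0859), and its other tested probe set was not called. Among 22 tested genes of germ cell RNA silencing, 9 were higher, 3 lower and 10 not called (40.9% and 13.6%, median 0.11). Higher than every stage were 3, Gtsf1, Rnf17 and Ago3, where 1.59% of all genes were so called. The 3 lower came to 1 without oocyte replicate 1 and to 1 with median centring. Rnf17, a Tudor protein of germ cells, read 1179, 1357, 1366 and 1481 in oocytes, against 294, 373, 510.4 and 564 at the 1-cell and 779, 541, 434 and 647 at the blastocyst stage, its nearest. The 4 other tested probe sets of Ago3 were not called. Ago2, the slicing Argonaute, was lower by all 3 of its tested probe sets, the dimmest of which averaged 16.7 in oocytes, against 20.9, 37.4, 738.6 and 723.5 in the embryo stages.

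Of 58 tested chromatin genes, 12 were higher, 17 lower and 29 not called (median -0.12). The shares were 20.7% higher and 29.3% lower, against 18.6% and 17.2% of all genes. Dnmt1, the maintenance DNA methyltransferase, was higher than every stage on its single tested probe set, an x_at set whose probes can match other transcripts. It read 7835, 8775, 10181 and 9244 in oocytes, against 2788, 2486, 2746 and 2402 at the 1-cell, 239.5 to 875 at the 2-cell and 73 to 296 at the 8-cell stage (nearest difference 1.78, adjusted p = 0.00429). Kat8, a histone H4 acetyltransferase, averaged 2978 ± 288 in oocytes, against 710.2 ± 275, 462.2 ± 144, 615.2 ± 96.1 and 387.8 ± 80.4, and was also higher than every stage. Kdm1b, a histone demethylase needed for maternal imprints, averaged 2524 ± 604 in oocytes, against 2932 ± 596, 939.6 ± 161, 153.7 ± 36.9 and 129.3 ± 31.6, and was not called against the 1-cell stage (adjusted p = 0.664). Tet1, a methylcytosine dioxygenase, was low in oocytes, at 34, 101, 65.5 and 27.6, against 49.8 to 112 at the 1-cell, 523 to 997 at the 8-cell and 1554 to 2358 at the blastocyst stage.

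Of 53 tested ribosome biogenesis genes, 6 were higher, 24 lower and 23 not called, with a median of -0.47, the lower share being 45.3% against 17.2% of all genes. Tsr1, a small-subunit maturation factor, read 596, 596, 660.1 and 531 in oocytes, against 568, 404, 339.9 and 454 at the 1-cell and 8726, 10009, 9652 and 12158 at the 8-cell stage. Rrs1, of large-subunit assembly, averaged 797.4 ± 266 in oocytes, against 1676 ± 452, 4105 ± 474, 5397 ± 1010 and 3769 ± 729, on an x_at probe set. Noc4l and Bms1, described above, were among the 6 higher, which came to 2 without x_at and s_at probe sets. The 18S control signal, given above, differed between oocyte and embryo arrays too, and its part in these calls was not tested.

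Of 21 tested oxidative phosphorylation genes (108 listed), 6 were higher, 3 lower and 12 not called (28.6% and 14.3%, median -0.06). Without oocyte replicate 4 or with quantile normalization 3 were higher. Of 10 proteasome genes 1 was higher, 2 lower and 7 not called (10% and 20%, median -0.23). Among all genes, 18.6% were higher and 17.2% lower. Ndufc2, a subunit of complex I, read 3174, 3601, 3637 and 3556 in oocytes, against 377, 557, 631 and 817 at the 1-cell, 358, 204, 268 and 199.8 at the 2-cell and 3957, 4317, 5286 and 4137 at the blastocyst stage. The oocyte arrays lay below the blastocyst arrays and above all 1-cell and 2-cell arrays, and another tested probe set was not called. Ndufaf6, an assembly factor of that complex, was likewise dimmest at the 1-cell and 2-cell stages, at 602.6 ± 216 in oocytes, against 44.6 ± 24.8, 88.1 ± 46.9, 209.1 ± 101 and 710.5 ± 226. Psmb5, a catalytic proteasome subunit, averaged 1317 ± 120 in oocytes, against 318.6 ± 65.0, 2187 ± 503, 6150 ± 820 and 10355 ± 1015.

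Genes of embryonic activation and of the blastocyst lineages came next. Of 17 tested cleavage-stage activation genes, 3 were higher, 9 lower and 5 not called, with a median of -1.21. The shares were 17.6% higher and 52.9% lower, against 18.6% and 17.2% of all genes. Obox6, a homeobox gene, read 28.1, 31.8, 47.1 and 33.6 in oocytes, against 20.2 to 51.1 at the 1-cell, 6919.9 to 8849 at the 2-cell and 15915 to 21768 at the 8-cell stage. Ubtfl1, an HMG-box gene, read 42, 30.9, 16.5 and 18.9 in oocytes, against 2.6 to 68.2 at the 1-cell and 3767 to 5120.4 at the 2-cell stage. Both overlapped with the 1-cell arrays, and neither was lower than every stage. Every oocyte array of both read below the filter's intensity, so they were tested only because of their embryo arrays. The 3 higher ones, Obox5, Pramel13 and Klf17, were led in brightness by Obox5, described above, with Pramel13 at 5643 ± 872 in oocytes, against 7260 ± 1210, 2640 ± 770, 648.7 ± 90.4 and 419.6 ± 74.8.

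Among 15 tested trophectoderm and epithelial genes none was higher, 9 were lower and 6 not called (0% and 60%, median -0.65). Tmprss2, a membrane serine protease, read 91, 20.5, 99.3 and 120.4 in oocytes, against 67.2 to 203 at the 8-cell and 10596, 7815, 11167 and 7126 at the blastocyst stage. Of 17 inner cell mass and pluripotency genes 2 were higher, 8 lower and 7 not called (11.8% and 47.1%, median -0.42). L1td1, an RNA-binding gene of pluripotent cells, read 17.4, 11.8, 13.3 and 33.6 in oocytes, against 5183, 5603, 11385 and 3049 in blastocysts. Its oocyte arrays all read below the filter's intensity, so it was tested only because of its embryo arrays. Of 13 primitive endoderm genes 2 were higher, 3 lower and 8 not called (median -0.25), shares of 15.4% and 23.1% against 18.6% and 17.2% of all genes, and 1 was higher without oocyte replicate 1, 2 or 4. Ctsh, a lysosomal cysteine protease in the endoderm list, was higher than every stage, at 3679.8, 3884, 3816 and 4165 in oocytes, against 1588, 1983, 2201 and 2606 at the 1-cell stage, on an x_at probe set.

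Markers of other cells that an oocyte sample could hold are given beside the shares of all genes, 18.6% higher and 17.2% lower. Few of the listed markers were tested, so nothing is read from their counts. Of 14 tested granulosa and cumulus cell markers (16 on the array, 56 listed), 2 were higher, 1 lower and 11 not called (14.3% and 7.14%, median 0.01). Their summed intensity was 4010 to 5402 in oocytes, against 4090 to 5041 at the 1-cell, 7259 to 7887 at the 2-cell, 4194 to 4922 at the 8-cell and 2871 to 3489 at the blastocyst stage. The 2 higher ones were Fst, follistatin, at 378, 383, 142 and 274 in oocytes against stage means of 104.8, 75.6, 111.4 and 146.1, and Prkar2b, a regulatory subunit of protein kinase A. Foxl2, a transcription factor that defines granulosa cells, averaged 760.0 in oocytes, against 579.1 to 755.8 in the embryo stages, and was not called (adjusted p = 0.283). Of 12 tested sperm and spermatid markers (18 on the array, 46 listed), 1, Spata18, was higher and 11 not called (8.33% higher, median -0.27). Fst lost its call without oocyte replicate 1, 2 or 4, and Spata18 without replicate 2 or 4. The summed intensity of the sperm and spermatid markers was 2325 to 3057 in oocytes, against 2591 to 3687 over all embryo arrays. The 1 tested gene of the 5 blood and reproductive tract markers on the array, Dcn, was not called, and the sum of the 5 was 147.1 to 234.9 in oocytes, against 140.2 to 304.5 over all embryo arrays.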

How the data were processed

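The authors deposited linear intensities for 20 MOE430B arrays, scaled to an equal trimmed mean. Per the labels' protocols, total RNA passed through 2 rounds of amplification, while the sources used here name no software for summarization or scaling. Controls (64 of 22575 probe sets) were left out, and no detection calls were used. Of 14661 probe sets with 1 symbol, 14486 matched the RefSeq table (GRCm38.p6). Stage means of log2(intensity + 20) were fitted with limma 3.58.1 (R 4.3.3) with an intensity trend in the prior variance, 4 arrays a stage, and p-values were adjusted by Benjamini-Hochberg over 15234 probe sets. The number of arrays limits the precision. The fit was tested on simulated data. Genes were named by rule: the 20 brightest in oocytes, the 15 with the largest nearest-stage difference among those called higher than every stage without overlap of arrays (none was called lower), the 8 largest differences from the embryo mean in each direction among those called without overlap, and up to 4 called members of each list. The first 3 parts left out x_at sets and clone names. Members and lists were chosen with earlier results of these data known. Replicate numbers did not pair arrays (same-number correlation of deviations -0.06 to 0.06, median 0.01, 40 pairs).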

Additional observations from a re-analysis of the deposited data

Results flagged for a closer look

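In 33 of 500 stage groups (6.6%) of the 100 named genes or probe sets, 1 of the 4 arrays lay so far from the nearest other that the gap, as a share of the range, passed the 95% critical value of Dixon's test, where chance gives about 1 in 20. Oocyte groups account for 6 of the 33. Among these, Fbxw24 read 26341.4 on replicate 4, Gyg 14525.7 and Ndufc2 3174.5 on replicate 1, Cep78 826.1 on replicate 2, Cdc42bpa 765.6 on replicate 3 and Prdm14 20.2 on replicate 4.

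At the 1-cell stage the arrays that stood apart read 19720.7 for Gyg (replicate 1), 66.3 for 4930432K21Rik and 135.3 for Gata6 (replicate 2), 81.6 for Ndufaf6 (replicate 3) and 270.2 for Lrp2 (replicate 4). At the 2-cell stage replicate 1 stood apart for 4 oocyte genes, with 11345 for Fbxw24, 2867.1 for Fbxw18, 4595.8 for Fbxw22 and 998.1 for Nlrp4b. Other 2-cell values were 2999.7 for Slc39a10 and 1.7 for Csta1 (replicate 2), and 104.5 for Fam47e, 149.9 for Mindy4 and 233.4 for Mkrn1 (replicate 4).

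At the 8-cell stage they were 21768.3 for Obox6 and 592.5 for Lrp2 (replicate 1), 2470.3 for Psenen (replicate 2), 1067.6 for Cox11 and 624.3 for Amhr2 (replicate 3), and 1269.6 for Pfdn4, 80.6 for Aknad1 and 759.2 for Kat8 (replicate 4). In blastocysts they were 1226.8 for Elobl and 233.7 for Astl (replicate 1), 131.3 for Mapkapk3 (replicate 2), and 1516.2 for Cox11 and 89 for Spata18 (replicate 3).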

How the results depend on the processing

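Across 33 settings, the 1998 higher and 2633 lower probe sets against the embryo mean stayed within 1.5 times these counts, and leaving out each array in turn gave 1749 to 2034 higher and 2145 to 2667 lower. The 157 higher than every stage came to 119 to 158 without single arrays, 764 without all 1-cell arrays and 225 where each stage was called separately. Of the 157, 117 were also called after quantile normalization. The count of 0 lower than every stage came to 0 to 3 without single arrays, 2 with a pseudocount of 5, 2 with a filter at the 75th percentile, 2 with median centring, 1 without the intensity trend, 5 with array weights, 877 without all 1-cell arrays and 52 where each stage was called separately. With the replicate number as a block, 1992 were higher, 2597 lower, 149 higher than every stage and 0 lower, and the numbers did not pair the arrays (4 of 20 arrays correlated best with their own number). Of 115 named gene values, 110 kept direction and call in all settings run, and Psmc5, Gata6, Fst and Spata18 lost their call in at least 1, while Dcn turned to 0.05 with quantile normalization and 0.06 with median centring. The cause of these changes was not tested beyond what each setting leaves out. Without detection calls, no bound separates dim probe sets from background.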
